A study of Mus musculus with 6 samples.

Results

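ATF4, a transcription factor of the stress response to amino acid shortage and misfolded protein, was followed together with its target genes and with the genes of the aminoacyl-tRNA synthetases in 410.4 mouse mammary carcinoma cells. The members were picked by gene symbol: 18 were named (Atf4, the related factor gene Atf5, and 16 genes known as its targets or partners), and 35 matched the naming pattern of synthetase genes, 19 of them without and 16 with the ending 2 that marks a mitochondrial enzyme. All 53 were found among the 55809 symbols of the count table, and all 53 were among the 13956 genes expressed highly enough to be tested. RNA was sequenced from 3 libraries of cells kept for 2 days in control medium and 3 libraries of cells kept for 2 days in medium conditioned with neutrophil extracellular traps (NETs), the DNA and protein webs that neutrophils release. Both media were DMEM with 0.5% serum, and all 6 libraries came from the same line, with no knockout or drug named in the labels. The source of the neutrophils is not given in the labels, and these say nothing of separate cultures, so the p-values rest on library-to-library spread alone, and that may be technical. In such bulk RNA, fewer cells of a type and less RNA per cell cannot be told apart.

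Cells lower their overall protein synthesis when a kinase phosphorylates the initiation factor eIF2alpha, and the ATF4 message is then translated more efficiently. ATF4 pairs with C/EBP proteins at composite sites in its target genes, which include genes for asparagine and serine synthesis, the mitochondrial folate cycle, amino acid uptake and the loading of tRNAs. Because ATF4 is controlled mainly at translation, its mRNA and its targets need not move together. Aminoacyl-tRNA synthetases join each amino acid to its tRNA, and mammalian cells use separate nuclear genes for most cytosolic and mitochondrial enzymes.

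The libraries held 31119105 to 64431811 counts. All 10 epithelial marker genes were expressed and tested. Their summed levels were 4652 to 4967 CPM in control medium and 4701 to 4795 CPM with NETs. CPM are counts per 1000000 counts. The sums of marker lists here are scaled by library size alone, and all other CPM are TMM-scaled. Of the 10, Cldn4 (378 to 789 CPM) and Krt8 rose. Krt18, Cldn7 and Cdh1 fell, and 5 did not pass the test. Of 15 neutrophil markers 7 had no count in any library, among them Elane, Csf3r and Camp, and the list added up to 1.78 to 2.34 CPM in control medium and 2.99 to 3.36 CPM with NETs. Of the 2 neutrophil markers tested, S100a8 rose (1.38 ± 0.300 to 2.63 ± 0.148 CPM) and Cxcr2 did not pass. The 9 macrophage markers, with Adgre1, C1qb and C1qc at 0, summed to 56.8 to 63.7 CPM against 109.8 to 116 CPM. Csf1r had by far the largest difference on that list (24.1 ± 1.43 to 80.2 ± 5.30 CPM), while Cd14 and Cd68 did not pass the test and Mrc1 fell. The 8 fibroblast markers, with Dcn, Lum and Thy1 at 0, summed to 44.1 to 50.3 CPM against 57.4 to 67.0 CPM, with the largest difference in Col1a1 (1.18 ± 0.129 to 13.4 ± 2.48 CPM), while Pdgfra, most of the sum, did not pass. The part of these lists in the results below was not tested. Each adjusted p below is from the quasi-likelihood test of edgeR, adjusted after Benjamini and Hochberg over all 13956 genes and called at 0.05, and values after ± are SD (n = 3) for levels and SE for fold changes. Fold changes compare NETs with control medium.

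Of ATF4 and its targets, 12 of 18 genes fell with NETs, 2 rose and 4 did not pass the test. The falls were shallow, and none reached 2-fold. The deepest falls were those of Vldlr, Trib3, Psat1, Nupr1, Chac1 and Asns, while Ddit4 rose 2.77-fold. Over all genes 38.9% were called, 20.2% higher and 18.7% lower, against 77.8% called, 11.1% higher and 66.7% lower in the list of 18. The list's median log2 fold change was -0.27, and that of all genes tested was -0.0039. The groups did not overlap in CPM at 16 of the 18, or 88.9%, where 49.0% of all genes show no overlap. With library size alone as the scaling, which lowers the median of all genes by 0.068 on the log2 scale, 2 of the 18 rose and 15 fell, and over all genes 35.9% of the calls were higher instead of 52.0%.

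**Figure D1:**
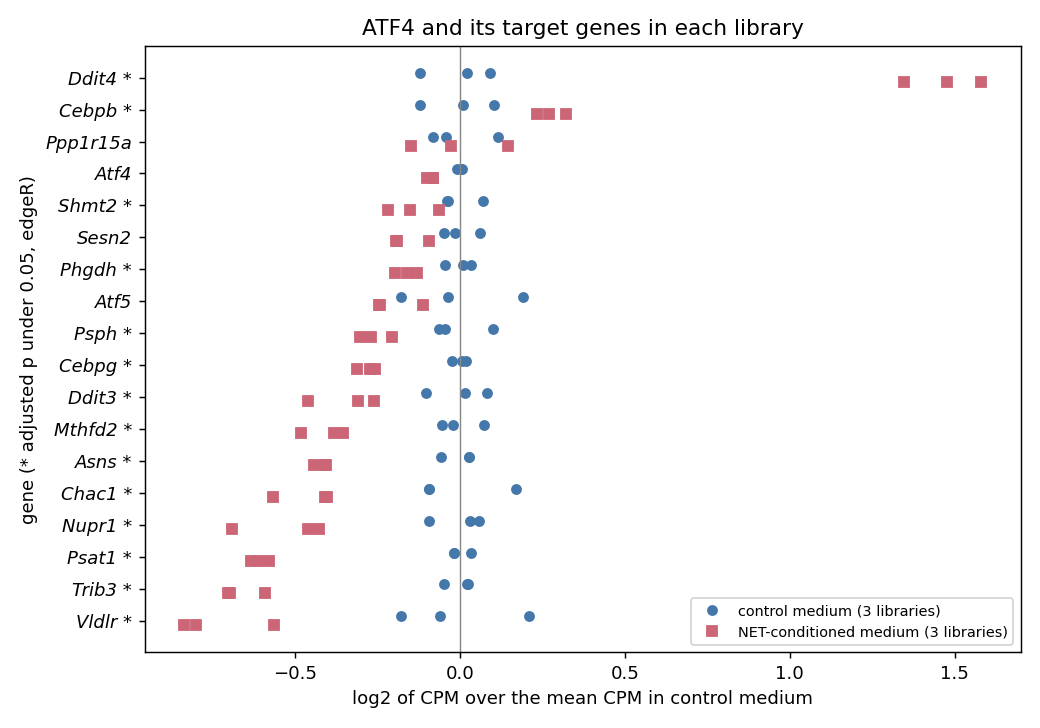
Each of the 18 genes in each library, as the log2 ratio of its CPM to the gene's mean in control medium (x axis), ordered by fold change, with circles for the 3 control libraries, squares for the 3 NET libraries and an asterisk for adjusted p under 0.05. The squares lie left of the circles for 14 genes and right of them for Ddit4 and Cebpb, and they mix with the circles for Atf5 and Ppp1r15a.

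The sequences in question are the matches to TGATGNAA (8 letters), a form of the composite site where ATF4 and a C/EBP protein bind side by side. Promoter windows from RefSeq (GRCm38.p6), which run from 250 bases before an annotated start to 50 bases after it, were at hand for 43 of the 53 members, and both strands were searched. A match stood in the windows of 5 of 18 genes of the ATF4 list (27.8%), of 5 of 12 cytosolic synthetases with a window (41.7%) and of 0 of 13 mitochondrial ones. Of all 27025 symbols with a window, 4.51% had a match, and of all 32851 windows 3.97%. All 5 matched genes of the ATF4 list fell, as did 7 of the 13 without a match, whereas of the 5 matched synthetases 1 fell, 1 rose and 3 did not pass the test. The median log2 fold change was -0.52 for the matched ATF4-list genes and -0.051 for the matched synthetases. A match is a string of letters and not a measured binding site, and a window without one says nothing of sites elsewhere.

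The matches are shown here with up to 11 bases on each side, read on the strand that carries TGATGNAA, which is in capitals, first for the genes that fell on the ATF4 list and then for the synthetases. For each gene the match nearest the annotated start is given.
Vldlr: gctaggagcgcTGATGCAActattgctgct
Trib3: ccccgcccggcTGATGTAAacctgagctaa
Nupr1: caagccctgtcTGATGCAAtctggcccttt
Chac1: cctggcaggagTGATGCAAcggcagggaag
Asns: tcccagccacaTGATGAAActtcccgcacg
Iars: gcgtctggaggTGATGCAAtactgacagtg
Yars: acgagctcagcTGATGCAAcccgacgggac
Gars: cgcccggtgcaTGATGAAAtagcgcagcca
Aars: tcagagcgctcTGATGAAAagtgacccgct
Tars: agctaaccagcTGATGCAAcgggactcctg

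In GRCm38.p6 these stretches lie at chr19:27216809-27216838 (Vldlr), chr2:152344028-152344057 (Trib3), chr7:126625562-126625591 (Nupr1), chr2:119351038-119351067 (Chac1), chr6:7693214-7693243 (Asns), chr13:49682126-49682155 (Iars), chr4:129189895-129189924 (Yars), chr6:55037960-55037989 (Gars), chr8:111033840-111033869 (Aars) and chr15:11399655-11399684 (Tars). The match lay on the gene's own strand in Asns and Yars and on the other strand in the other genes, and for Vldlr it stood in 1 of 2 annotated windows. Genes with the same letters differed in their fold changes: Tars and Chac1 share TGATGCAA, with log2 fold changes of 0.17 and -0.46, and Asns and Gars share TGATGAAA, with -0.42 and -0.051.

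The 250 bases before the start are given in the gene's own direction for 2 genes that fell, Asns at chr6:7693210-7693459 (minus strand) and Chac1 at chr2:119350992-119351241 (plus strand), for Gars, which did not pass the test, at chr6:55037751-55038000 (plus strand), and for Tars, which rose, at chr15:11399659-11399908 (minus strand). Capitals mark the match, which reads as its reverse complement TTNCATCA where it lies on the other strand.
Asns: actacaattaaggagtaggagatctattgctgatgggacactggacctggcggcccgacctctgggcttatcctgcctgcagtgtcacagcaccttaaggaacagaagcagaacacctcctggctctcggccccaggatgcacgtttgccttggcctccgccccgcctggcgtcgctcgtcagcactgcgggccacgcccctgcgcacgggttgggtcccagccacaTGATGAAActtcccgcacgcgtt
Chac1: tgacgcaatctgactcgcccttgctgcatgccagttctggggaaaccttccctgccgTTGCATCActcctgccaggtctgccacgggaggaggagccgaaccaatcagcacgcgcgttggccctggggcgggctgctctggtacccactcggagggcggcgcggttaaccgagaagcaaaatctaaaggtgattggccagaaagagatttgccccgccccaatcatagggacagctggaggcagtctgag
Gars: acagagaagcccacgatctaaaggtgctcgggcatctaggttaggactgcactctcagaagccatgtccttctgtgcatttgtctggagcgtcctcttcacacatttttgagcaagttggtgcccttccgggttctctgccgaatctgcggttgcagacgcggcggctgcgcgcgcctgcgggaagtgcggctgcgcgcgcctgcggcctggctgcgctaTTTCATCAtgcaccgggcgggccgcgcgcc
Tars: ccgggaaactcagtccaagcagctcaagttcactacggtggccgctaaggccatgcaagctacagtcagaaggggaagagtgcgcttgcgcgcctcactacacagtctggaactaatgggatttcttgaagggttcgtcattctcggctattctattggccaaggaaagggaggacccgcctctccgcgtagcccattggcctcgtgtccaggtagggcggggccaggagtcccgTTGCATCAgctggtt

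**Figure D2:**
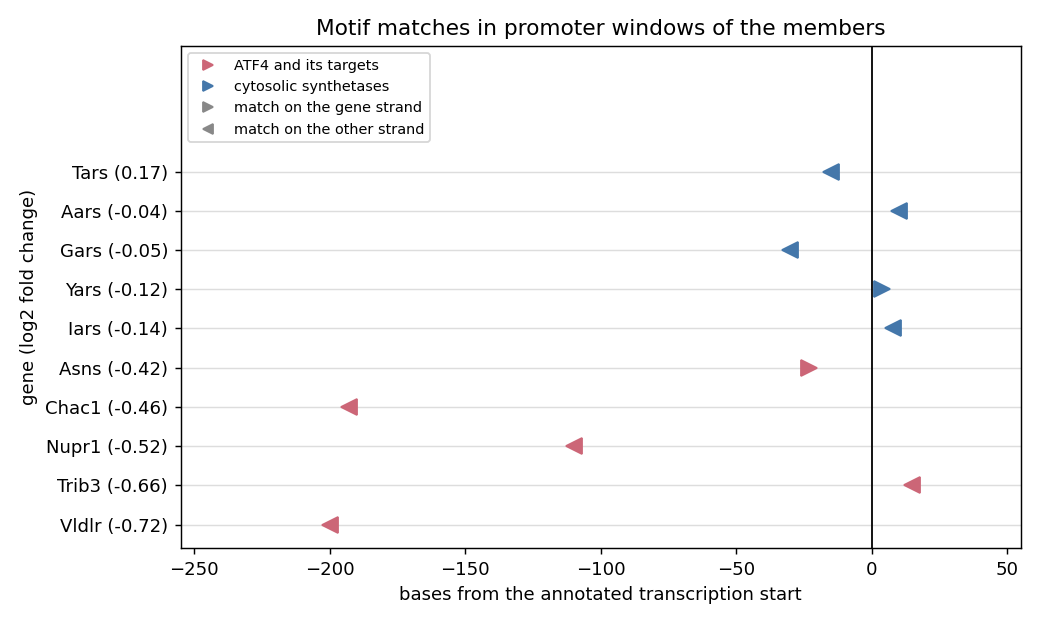
Position of the TGATGNAA match nearest the annotated start (x axis, bases from that start) in each of the 10 members that have one, ordered by log2 fold change (in parentheses), with triangles pointing right for the gene's own strand and left for the other strand. The 5 genes of the ATF4 list (log2 fold changes -0.42 to -0.72) stand below the 5 synthetases (-0.14 to 0.17).

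Neither ATF factor gene on the list passed the test. Atf4 itself, on chromosome 15 (80139385 to 80141742 in the deposited table, plus strand), stood at 631, 637 and 636 CPM in control medium and at 599.6, 592 and 600.1 CPM with NETs. The 3 NET libraries lay below the 3 control libraries by a small margin, and the difference did not pass the test (log2 fold change -0.088 ± 0.045 SE, adjusted p = 0.135). Atf5, whose product is a further stress-induced ATF factor, had 239.9, 281 and 217 CPM and 208, 207 and 228 CPM, with overlapping groups (log2 fold change -0.20 ± 0.080 SE, adjusted p = 0.0698). Both calls depended on the settings. With library size alone the log2 fold changes were -0.16 for Atf4 and -0.27 for Atf5 and both passed, and Atf5 also passed without control replicate 3 (-0.28), without a filter (-0.21) and in DESeq2 (-0.20).

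The partner genes of the C/EBP family went apart. Cebpg, which encodes a dimer partner of ATF4, had 113, 110.02 and 112 CPM in control medium and 90.3, 92.8 and 93.7 CPM with NETs, so that every NET library was lower (log2 fold change -0.28 ± 0.047 SE, adjusted p = 0.000152). Cebpb, the gene of an inducible C/EBP factor, had 202, 235 and 221 CPM and 258, 265 and 274 CPM, with every NET library higher (log2 fold change 0.28 ± 0.056 SE, adjusted p = 0.000805). Ddit3, which encodes the C/EBP-related factor CHOP, fell from 74.0, 65.2 and 70.7 CPM to 50.9, 56.5 and 58.4 CPM (log2 fold change -0.34 ± 0.064 SE, adjusted p = 0.000399). Exons of these 3 genes overlap other genes on the opposite strand, Gm45095 for Cebpg, Peds1 for Cebpb, and Gm4189 and a row named mars-01 for Ddit3, and those of Cebpg also overlap Gm44836 on the same strand. How strand was set in the counting is not known here, so reads of such neighbours could be shared. Such overlaps on the opposite strand touch 21 of the 53 members. The row mars-01 did not move the way Ddit3 did: it had 149.6, 159 and 157 CPM in control medium and 175, 161 and 163 CPM with NETs (log2 fold change 0.097 ± 0.050 SE, adjusted p = 0.140).

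The genes of enzymes that make asparagine and serine fell. Asns, the asparagine synthetase gene, on chromosome 6 (7675169 to 7693254 in the table's coordinates, minus strand), had 442, 469 and 468 CPM in control medium and 338, 347 and 346 CPM with NETs (log2 fold change -0.42 ± 0.047 SE, adjusted p = 1.86e-06). The gap between the groups was wider than the spread within either. Per length it went from 168 to 126 RPKM (CPM per kilobase of exon).

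Psat1 carries out the transamination step of serine synthesis and lies on chromosome 19 (15882042 to 15924701, minus strand). It had 696, 696 and 719.6 CPM in control medium and 460.1, 453 and 472 CPM with NETs, a 1.52-fold fall (log2 fold change -0.61 ± 0.046 SE, adjusted p = 1.53e-08). The genes of the steps before and after it in the serine pathway had smaller fold changes: Phgdh, the first enzyme, had 179.5, 189 and 186 CPM and 166, 169 and 161 CPM (log2 fold change -0.16 ± 0.047 SE, adjusted p = 0.0105). Psph, the last, had 54.4, 53.7 and 60.3 CPM and 46.6, 48.7 and 45.5 CPM (log2 fold change -0.26 ± 0.059 SE, adjusted p = 0.00212). All 3 steps thus had every NET library below every control library. Exons of Psph overlap Cct6a on the other strand. The call of Phgdh was lost without NETs replicate 3 (log2 fold change -0.15).

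The genes of mitochondrial folate-cycle enzymes on the list, Mthfd2 and Shmt2, both fell, Mthfd2 with the larger fold change. Mthfd2, a methylenetetrahydrofolate dehydrogenase, had 308, 300.3 and 328 CPM in control medium and 244, 224 and 239 CPM with NETs (log2 fold change -0.40 ± 0.052 SE, adjusted p = 8.22e-06). Shmt2, the mitochondrial serine hydroxymethyltransferase, had 389.7, 390.3 and 419.9 CPM and 344, 382 and 360.3 CPM (log2 fold change -0.14 ± 0.053 SE, adjusted p = 0.0393). The gap between the groups was narrow for Shmt2, whose exons also overlap Ndufa4l2 on the other strand. Its call was lost without control replicate 1 (log2 fold change -0.16), control replicate 3 (-0.11), NETs replicate 1 (-0.11) or NETs replicate 3 (-0.14).

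Of the stress effector genes Trib3, Nupr1, Chac1 and Vldlr fell, Sesn2 and Ppp1r15a did not pass and Ddit4 rose. Trib3, a pseudokinase that feeds back on ATF4 and CHOP, lies on chromosome 2 (152179342 to 152185952, minus strand). It had 330.3, 329 and 314 CPM in control medium and 215, 199.6 and 200.1 CPM with NETs, a 1.58-fold fall (log2 fold change -0.66 ± 0.049 SE, adjusted p = 1.20e-08). Nupr1, a small stress-induced chromatin protein, had 368, 401 and 409.5 CPM and 244, 292 and 285 CPM (log2 fold change -0.52 ± 0.065 SE, adjusted p = 1.11e-05). Chac1, which breaks down glutathione, had 64.8, 64.8 and 77.9 CPM and 46.8, 52.4 and 52.2 CPM (log2 fold change -0.46 ± 0.073 SE, adjusted p = 0.000120). For these 3 genes the highest NET library stayed well under the lowest control library.

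Vldlr, a lipoprotein receptor gene, had the fewest counts of the 18, with 5.20, 3.98 and 4.32 CPM in control medium and 2.59, 2.52 and 3.04 CPM with NETs (log2 fold change -0.72 ± 0.15 SE, adjusted p = 0.00114). Its standard error was the widest in the list. Sesn2, which encodes a leucine sensor that restrains the growth kinase complex mTORC1, had 26.8, 27.4 and 29.0 CPM and 24.3, 26.0 and 24.3 CPM and did not pass (log2 fold change -0.16 ± 0.066 SE, adjusted p = 0.0637), although it did with upper-quartile factors (-0.18) and with library size alone (-0.23). Ppp1r15a, the inducible phosphatase subunit GADD34 that restores eIF2alpha, had 77.7, 79.9 and 89.2 CPM and 74.2, 91.1 and 80.8 CPM, with overlapping groups and no difference that passed (log2 fold change -0.0067 ± 0.072 SE, adjusted p = 0.955).

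Ddit4, the gene of the mTORC1 inhibitor REDD1, was the other gene that rose besides Cebpb. It lies on chromosome 10 (59785491 to 59787656, minus strand) and had 222, 244 and 256 CPM in control medium and 612, 719 and 669.7 CPM with NETs (log2 fold change 1.47 ± 0.065 SE, adjusted p = 4.23e-11). Every NET library had more than 2 times the level of every control library, and no other gene on the list changed by 2-fold in either direction. The rise stayed between 1.40 and 1.53 on the log2 scale in the 16 other settings tried. Per length Ddit4 went from 137 to 380.1 RPKM, and Atf4 had 269 and 253 RPKM. The median of the 18 genes in control medium was 106 RPKM, against 6.08 RPKM over all genes tested.

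The cytosolic synthetase genes stayed close to their control levels. Of 19 genes 3 rose (Farsa, Tars, Wars), 4 fell (Vars, Farsb, Rars, Iars) and 12 did not pass, so that 36.8% were called, near the 38.9% of all genes. Log2 fold changes ran from -0.24 to 0.26 with a median of -0.073. Their CPM did not overlap between the groups at 8 genes, 42.1% against 49.0% of all genes. Summed over the 19 genes, the libraries had 5567, 5574 and 5864 CPM in control medium and 5295, 5535 and 5458 CPM with NETs, or 5668 ± 169 and 5429 ± 122 CPM (mean ± SD, n = 3). The groups do not overlap, by a narrow margin, and the means differ by -4.22%. Scaled by library size alone 1 cytosolic gene was higher and 12 lower, so that the split of this group rests on the scaling.

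Vars, which charges valine, had 522, 558 and 507 CPM in control medium and 477, 413 and 452 CPM with NETs (log2 fold change -0.24 ± 0.057 SE, adjusted p = 0.00295). Rars, for arginine, had 255, 251 and 290.5 CPM and 213, 249.6 and 229.96 CPM (log2 fold change -0.20 ± 0.065 SE, adjusted p = 0.0227). Iars, for isoleucine, had 505, 482 and 502 CPM and 439.8, 449.7 and 461 CPM (log2 fold change -0.14 ± 0.047 SE, adjusted p = 0.0249). In each of the 3 every NET library was lower, for Rars by less than 2 CPM at the closest libraries. The call of Rars was lost without control replicate 3 (log2 fold change -0.13), NETs replicate 1 (-0.15) or NETs replicate 3 (-0.20), and that of Iars without control replicate 1 (-0.13), NETs replicate 1 (-0.13) or NETs replicate 2 (-0.14).

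Both genes of the phenylalanine enzyme, whose alpha and beta chains form 1 complex, were called, and in opposite directions. Farsa, the alpha chain gene on chromosome 8 (85583618 to 85595886, plus strand), had 54.7, 55.4 and 58.8 CPM in control medium and 65.7, 70.2 and 66.2 CPM with NETs (log2 fold change 0.26 ± 0.054 SE, adjusted p = 0.00114). Farsb, the beta chain gene on chromosome 1 (78394612 to 78465534, minus strand), had 98.7, 105 and 104 CPM and 91.1, 82.5 and 87.9 CPM (log2 fold change -0.23 ± 0.053 SE, adjusted p = 0.00196). Neither call was lost in the 16 other settings. The ratio of Farsa to Farsb, a quantity chosen after these values were seen, was 0.554, 0.528 and 0.565 in control medium and 0.721, 0.851 and 0.753 with NETs. That the ratios do not overlap follows from the choice of these genes. An exact permutation test of the log2 ratio over the 6 libraries therefore gave the smallest p it can give (0.1), and nothing is drawn from it. Exons of Farsb overlap Sgpp2 on the other strand.

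Tars, for threonine, had 261, 257 and 292 CPM in control medium and 286, 312 and 315 CPM with NETs (log2 fold change 0.17 ± 0.057 SE, adjusted p = 0.0257), and its groups overlapped. Wars, for tryptophan, had 114, 120.1 and 112 CPM and 131, 121 and 132 CPM (log2 fold change 0.15 ± 0.051 SE, adjusted p = 0.0255), with 1 CPM between the closest libraries. Both calls were fragile. That of Tars was lost with library size alone (log2 fold change 0.10) and without control replicate 1 (0.14), control replicate 2 (0.14), NETs replicate 2 (0.15) or NETs replicate 3 (0.14). That of Wars was lost with upper-quartile factors (0.13), library size alone (0.084) and no filter (0.14), and without control replicate 1 (0.14), control replicate 3 (0.13), NETs replicate 1 (0.13) or NETs replicate 3 (0.13).

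The cytosolic genes expressed most per length were Gars and Nars. Gars, which supplies glycine charging in the cytosol and in mitochondria, had 464, 454 and 483 CPM in control medium and 453, 443 and 456 CPM with NETs (149.7 and 145 RPKM), with overlapping groups (log2 fold change -0.051 ± 0.047 SE, adjusted p = 0.426). Nars, for asparagine, had 546, 544 and 607 CPM and 499, 582 and 518 CPM (129.9 and 122 RPKM), also overlapping (log2 fold change -0.086 ± 0.061 SE, adjusted p = 0.296). Nars thus stayed within its spread while Asns, which makes the amino acid that Nars loads, fell. Kars, the other gene that serves both compartments, had 311, 318 and 330.1 CPM and 325, 370.4 and 340.1 CPM (log2 fold change 0.11 ± 0.054 SE, adjusted p = 0.117), and Aars, for alanine, 485, 482 and 517 CPM and 462, 497 and 488 CPM (log2 fold change -0.036 ± 0.050 SE, adjusted p = 0.607). The other 8 genes that did not pass were Cars, Dars, Eprs, Hars, Lars, Qars, Sars and Yars, with log2 fold changes from -0.13 (Cars) to 0.013 (Qars). Of these Yars came closest to the threshold (adjusted p = 0.0559) and Lars and Yars showed no overlap between groups.

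**Figure D3:**
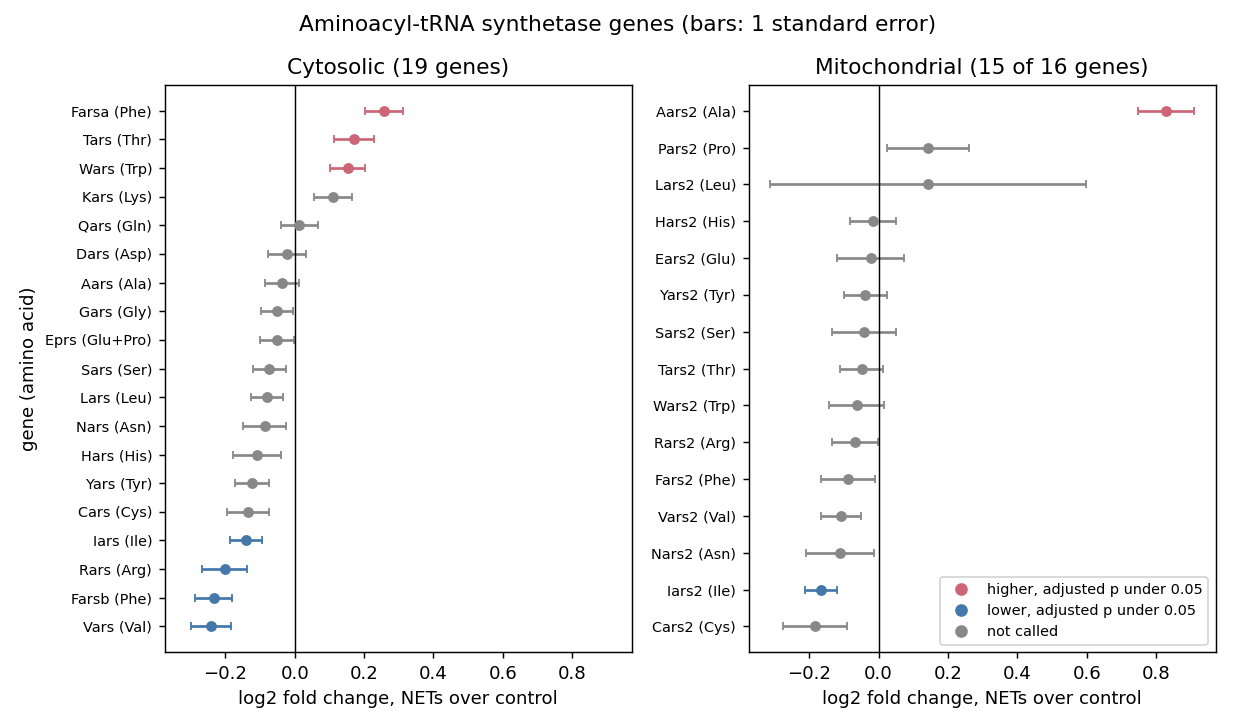
Log2 fold change of the synthetase genes with standard errors (x axis), the 19 cytosolic genes on the left and 15 of the 16 mitochondrial genes on the right, coloured by the call. The points lie between -0.24 and 0.26 on both sides, apart from Aars2 at 0.83, and Lars2 has by far the widest bar.

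Of 16 mitochondrial synthetase genes 1 rose, 2 fell and 13 did not pass, or 18.8% called against 38.9% of all genes. The median log2 fold change was -0.056, and the groups did not overlap at 3 genes, 18.8% against 49.0% of all genes. Aars2, the mitochondrial alanine enzyme gene on chromosome 17 (45817767 to 45831769, plus strand), had 11.3, 11.4 and 12.6 CPM in control medium and 21.2, 21.9 and 19.7 CPM with NETs, a 1.78-fold rise (log2 fold change 0.83 ± 0.082 SE, adjusted p = 4.12e-07). Every NET library had over 7 CPM more than the highest control library, and the call held in the 16 other settings. Of the 35 synthetases matched by name, none besides Aars2 that passed changed by more than 1.20-fold. Its cytosolic counterpart Aars, given above, did not pass, and the deposited table shows no gene whose exons overlap those of Aars2.

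Among the falls was that of Iars2, for isoleucine, which had 153, 144 and 149.7 CPM in control medium and 134, 134 and 132 CPM with NETs (log2 fold change -0.17 ± 0.046 SE, adjusted p = 0.00931). Every NET library lay below the control libraries, and its exons overlap Rab3gap2 and 2010103J01Rik on the other strand. The call of Iars2 was lost without control replicate 1 (log2 fold change -0.15). The 12 genes besides Lars2 that did not pass were Cars2, Ears2, Fars2, Hars2, Nars2, Pars2, Rars2, Sars2, Tars2, Vars2, Wars2 and Yars2, with log2 fold changes from -0.18 (Cars2) to 0.14 (Pars2), and the groups overlapped at each of them.

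Lars2, the mitochondrial leucine enzyme gene on chromosome 9 (123195992 to 123291731, plus strand), varied within the groups far more than any other member. It had 337, 137 and 262 CPM in control medium and 279.6, 356 and 179.5 CPM with NETs (log2 fold change 0.14 ± 0.46 SE, adjusted p = 0.847). The highest and lowest libraries of each group differed by about 2-fold or more, with control replicate 2 the lowest and NETs replicate 2 the highest, and Lars2 made up 22.9% to 44.1% of the counts of all mitochondrial synthetases. Without Lars2 the remaining 15 genes summed to 471, 461 and 468 CPM in control medium and to 446, 453 and 431 CPM with NETs, or 467 ± 5.35 and 443 ± 10.8 CPM. These groups do not overlap, and the means differ by -5.03%, close to the -4.22% of the cytosolic genes. With Lars2 the means were 712 ± 106 and 715 ± 99.5 CPM. The log2 fold change of Lars2 was -0.15 without control replicate 2 and -0.10 without NETs replicate 2, so it has no direction here.

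**Figure D4:**
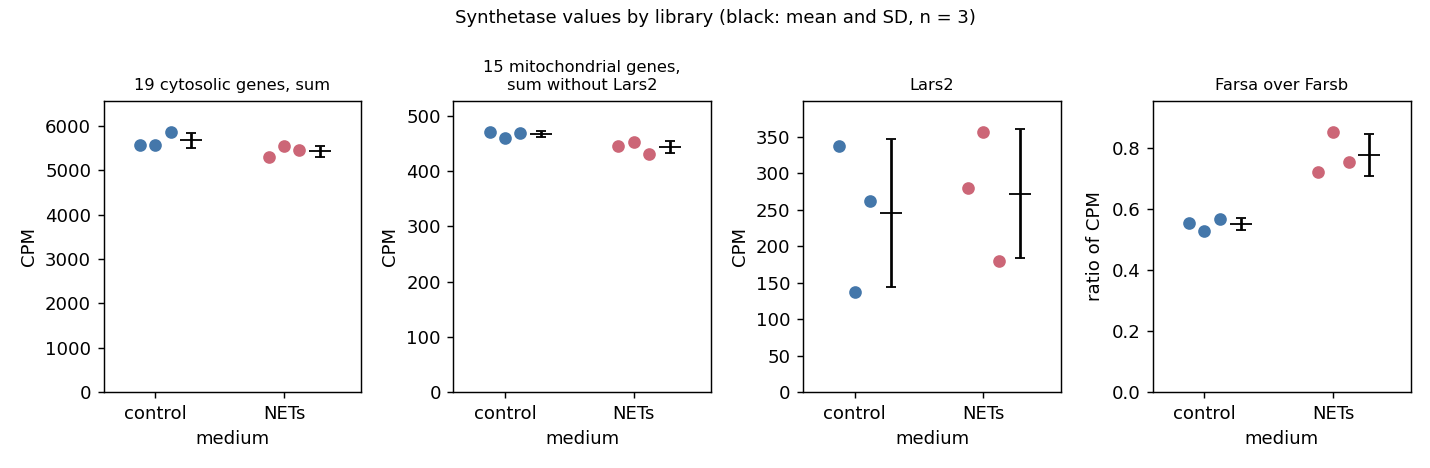
Values in each library (points) with mean and SD (n = 3, black) for the sum of the 19 cytosolic genes, the sum of the 15 mitochondrial genes without Lars2, Lars2 alone (y axes, CPM) and the ratio of Farsa to Farsb. The means of the 2 sums differ by -4.22% and -5.03%, Lars2 spreads from 137 to 356 CPM with no separation, and the Farsa to Farsb ratio is higher in all 3 NET libraries.

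Cytosolic and mitochondrial synthetases had similar median log2 fold changes, -0.073 and -0.056, and the cytosolic gene had the lower fold change in 10 of 17 pairings of a cytosolic with a mitochondrial gene for the same amino acid. The widest gaps were for alanine (-0.036 for Aars against 0.83 for Aars2) and for phenylalanine, where Farsa stood at 0.26 and Fars2 at -0.088. Isoleucine was the amino acid for which both genes were called, and both fell by a like amount (-0.14 and -0.17). No amino acid had its cytosolic and mitochondrial genes called in opposite directions. These differences between members were not tested, since genes are no replicates. Their levels differed more than their fold changes. In control medium the cytosolic gene was higher per length in 17 of 17 pairings, with a median ratio of 12.3 and a range from 1.79 (Yars to Yars2) to 73.1 (Nars to Nars2), and the median levels were 45.8 and 4.21 RPKM. Lars2 (22.1 RPKM in control medium) and Iars2 (16.8 RPKM) were the highest mitochondrial genes, and they do not differ beyond the spread of Lars2. The exon lengths behind RPKM are those of the deposited table, which join all annotated exons of a gene (18102 bases for Eprs, for example), so that genes with long or rare exons appear lower.

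Of 12 tested genes that encode the scaffold of the multisynthetase complex or act on tRNAs, 0 rose, 3 fell and 9 did not pass (25.0% lower against 18.7% of all genes, median log2 fold change -0.051). The scaffold genes Aimp1, Aimp2 and Eef1e1 had log2 fold changes of 0.026, 0.033 and 0.077 and did not pass. Gatc, a subunit of the amidotransferase that makes glutaminyl-tRNA in mitochondria, fell from 32.1 ± 1.21 to 23.7 ± 1.18 CPM (log2 fold change -0.44 ± 0.066 SE, adjusted p = 4.74e-05), while the other subunits Qrsl1 (0.11) and Gatb (-0.053) did not pass. Tarsl2, a threonyl-tRNA synthetase gene outside the naming pattern, fell from 19.4 ± 1.42 to 14.2 ± 1.04 CPM (log2 fold change -0.45 ± 0.084 SE, adjusted p = 0.000399), and the D-aminoacyl-tRNA deacylase gene Dtd2 from 21.9 ± 0.292 to 19.3 ± 0.431 CPM (log2 fold change -0.18 ± 0.068 SE, adjusted p = 0.0487).

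Upstream of ATF4, the gene list of eIF2alpha kinases and phosphatases, which also holds related genes, moved both ways. Of its 9 genes 3 rose, 3 fell and 3 did not pass (33.3% each way, against 20.2% higher and 18.7% lower over all genes). The median of the list stood at 0.12 on the log2 scale. Those that did not pass were Eif2s1, Eif2b5 and Gcn1, which encode neither a kinase nor a phosphatase. Eif2ak3, the gene of PERK, the kinase that responds to misfolded protein in the endoplasmic reticulum, rose from 47.1 ± 2.77 to 65.4 ± 2.58 CPM (log2 fold change 0.47 ± 0.058 SE, adjusted p = 5.78e-06). Eif2ak4, the gene of GCN2, which senses uncharged tRNA, rose less, from 29.4 ± 1.04 to 33.7 ± 1.53 CPM (log2 fold change 0.20 ± 0.062 SE, adjusted p = 0.0180), and so did Eif2ak1, the gene of the heme-regulated kinase (0.18). Eif2ak2, the gene of the RNA-activated kinase PKR, fell from 122 ± 10.5 to 95.5 ± 7.44 CPM (log2 fold change -0.35 ± 0.067 SE, adjusted p = 0.000615). Ppp1r15b, the constitutive partner of the phosphatase, fell from 192 ± 4.29 to 151 ± 4.06 CPM (log2 fold change -0.34 ± 0.046 SE, adjusted p = 1.71e-05). Impact, an inhibitor of GCN2, fell from 12.4 ± 1.78 to 9.61 ± 1.75 CPM, with overlapping groups (log2 fold change -0.36 ± 0.13 SE, adjusted p = 0.0383). These are transcript levels, and the activity of the kinases was not measured.

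The further genes listed here as ATF4 targets, outside the 18, fell more often than they rose. Whether ATF4 acts on each of them in these cells was not tested. Of 31 tested 20 fell (64.5%), 6 rose (19.4%) and 5 did not pass, against 18.7% lower and 20.2% higher over all genes, and the median was -0.26 on the log2 scale. The share that rose is thus near that of all genes. The smallest p-values on this list were those of Trib2, a Trib3 relative, which fell from 89.8 ± 6.77 to 27.8 ± 0.573 CPM (log2 fold change -1.69 ± 0.062 SE, adjusted p = 1.35e-12), and of Gadd45a and Sesn3, which rose from 52.7 ± 2.18 to 129 ± 11.3 CPM (log2 fold change 1.29 ± 0.063 SE, adjusted p = 6.19e-11) and from 40.8 ± 3.92 to 95.1 ± 4.70 CPM (log2 fold change 1.22 ± 0.068 SE, adjusted p = 4.35e-10). Gadd45a and Sesn3 encode stress proteins that act on the cell cycle and on mTORC1. The amino acid transporter genes Slc1a5, Slc7a11, Slc7a5, Slc1a4, Slc7a1, Slc6a9 and Slc38a2 fell, by 0.21 (Slc38a2) to 0.97 (Slc1a5) on the log2 scale, and Slc3a2, which encodes the heavy chain that Slc7a5 and Slc7a11 pair with, rose (0.16). Of the metabolic enzymes, Gpt2, Pck2, Pycr1, Aldh18a1, Aldh1l2, Shmt1, Mthfd1l and Cth fell, by 0.19 (Pck2, with overlapping groups) to 0.98 (Cth).

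**Figure D5:**
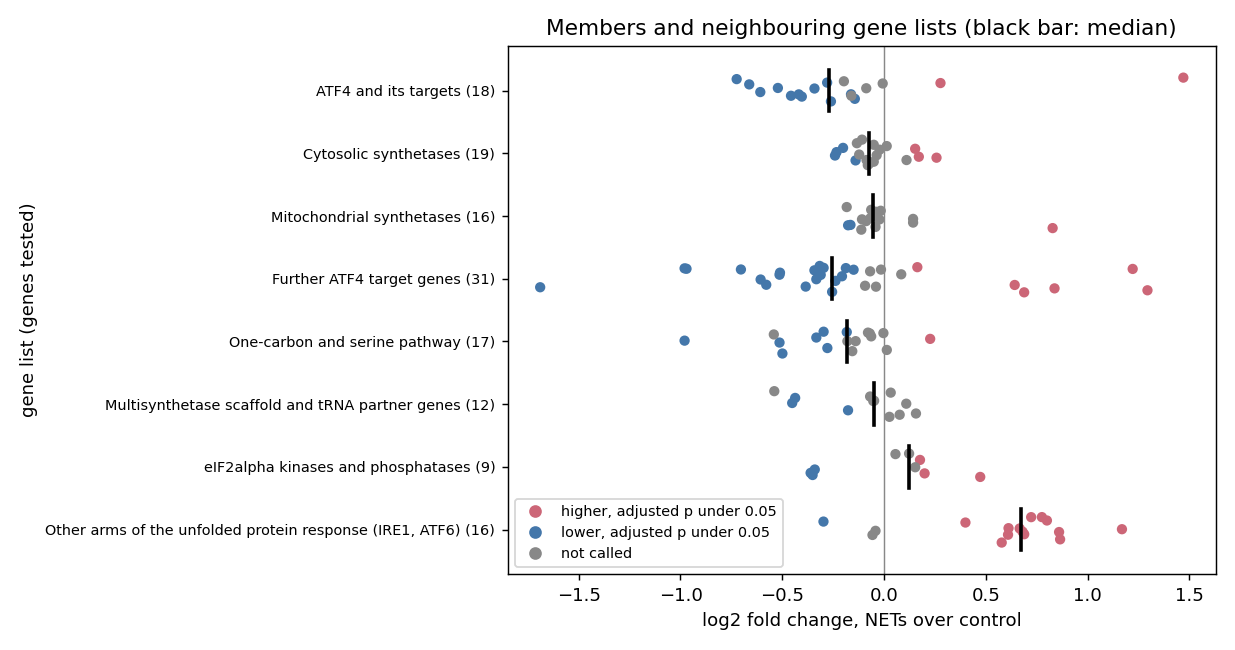
Log2 fold change (x axis) of every tested gene on the 3 member groups and 5 neighbouring lists, with points coloured by the call, jittered vertically, and a black bar at the median. The ATF4 list and the further ATF4 targets centre at -0.27 and -0.26, both synthetase groups near 0 (-0.073 and -0.056), and the genes of the IRE1 and ATF6 arms at 0.67.

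Of 17 tested genes of one-carbon and serine metabolism, 4 of which also stand on the list of further targets, 1 rose (5.88%), 7 fell (41.2%) and 9 did not pass, against 20.2% higher and 18.7% lower over all genes (median -0.18). Cth, the gene of cystathionine gamma-lyase, fell from 39.1 ± 2.45 to 19.8 ± 1.09 CPM (log2 fold change -0.98 ± 0.070 SE, adjusted p = 6.64e-09). Mthfd1l, a mitochondrial enzyme next to Mthfd2 in the pathway, fell from 117 ± 1.94 to 82.0 ± 2.47 CPM (log2 fold change -0.51 ± 0.048 SE, adjusted p = 2.42e-07). The cytosolic counterpart of Shmt2, Shmt1, fell by 0.33 on the log2 scale.

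Genes of the other arms of the unfolded protein response mostly rose. Of 16 genes that act in or respond to the IRE1 and ATF6 arms 13 rose, 1 fell and 2 did not pass (81.2% higher against 20.2% of all genes), and the median was 0.67. The chaperone gene Hspa5 rose from 1441 ± 159 to 3240.3 ± 124 CPM (log2 fold change 1.17 ± 0.069 SE, adjusted p = 1.27e-09), Xbp1, whose message IRE1 splices, from 68.7 ± 3.92 to 118 ± 4.44 CPM (log2 fold change 0.78 ± 0.055 SE, adjusted p = 6.54e-09), and Manf, a secreted stress protein gene, from 148 ± 14.1 to 269 ± 17.1 CPM (log2 fold change 0.86 ± 0.066 SE, adjusted p = 4.74e-08). Herpud1, which responds to several arms and stands on the list of further ATF4 targets, rose by 0.64. The sensor gene Atf6 itself fell (-0.30) and Ern1, the gene of IRE1, did not pass (-0.042). Ddit3, the gene of CHOP, which several arms can induce, is itself on the ATF4 list and fell, as given above. Which arm its level follows was not tested.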

How the data were processed

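RNA of 6 libraries, 3 per medium, was sequenced from libraries made with a stranded mRNA kit, per the labels' protocols. The authors deposited raw counts per gene symbol. STAR 2.7.10a, featureCounts of Subread 2.0.3 and the build mm10 are named in the submitters' processing notes. Strand setting, treatment of multi-mapping reads and annotation: not given in the sources used here. Coordinates are as deposited and 1-based. Of 38933 symbols compared, 11.6% overlapped their GRCm38 span, so these coordinates appear to follow another build, which is not named. The deposited table also gives the other measure used here, exon length in bases per gene. Of counts from 1 to 20, 74.8% to 78.4% were even against about 50% expected, so mates appear to have been counted singly and counts stand for reads.

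Counts were filtered (filterByExpr, minimum count 10; 13956 genes, at least 99.95% of each library's counts), TMM-scaled and tested with edgeR 4.0.16 (glmQLFit, robust; glmQLFTest) in R 4.3.3, on the medium alone. The code was tested on simulated data. DESeq2 1.42.0 and limma 3.58.1 (voom) were alternatives, with other scalings, filters, halved counts, a replicate block and each library left out. Replicates differed by 9.66 to 25.2 times the noise that independent counts would have (chi-square per degree of freedom), and none was merged. Mates counted singly are not independent and would raise these multiples.

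Members and lists were chosen with earlier results of these data known. Per-library values are given for all 18 ATF4-list genes, among synthetases for those called and for the 2 highest per length in each group (Aars and Kars were added after their values were seen), and for lists the 3 smallest p-values, with other genes named after their values were seen. No test was run on a list. The 2 rows named mars-01 and mars-02 do not match the naming pattern, and the table does not say which genes they are, so methionine enzymes are not analysed here. Windows of 10 members were not used here, and a few genes and sequences that the rule would name are not reported here.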

Additional observations from a re-analysis of the deposited data

How the results depend on the processing

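No called member changed direction in the 16 other settings (10 of processing, 6 with a library left out): of 848 values 779 kept direction and call, 27 lost the call, 26 gained one and 16 changed sign, all of the last in genes that had not passed. With library size alone 13 cytosolic and 5 mitochondrial synthetases were called instead of 7 and 3, 1 and 1 of them higher; this scaling lowers the median of all genes by 0.068. Leaving out 1 library gave 4 (without NETs replicate 3) to 7 cytosolic and 1 (without control replicate 1) to 4 mitochondrial calls; the cause was not tested. Setting Lars2 aside, chosen after seeing the data, left 3 mitochondrial calls, and setting Gars and Kars aside left 7 cytosolic ones. Signs changed for Qars with upper-quartile factors (-0.010), library size alone (-0.056) and no filter (-4.93e-06). With a library left out, log2 fold changes ranged over -0.047 to 0.053 for Qars, -0.086 to 0.058 for Ppp1r15a, -0.065 to 0.027 for Dars, -0.087 to 0.046 for Ears2, -0.044 to 0.026 for Hars2, -0.15 to 0.44 for Lars2, -0.091 to 0.0024 for Sars2 and -0.076 to 0.011 for Yars2. With the replicate block 2969 genes were higher and 2713 lower instead of 2825 and 2605, and the calls were 14 of the ATF4 list, 8 cytosolic and 3 mitochondrial synthetases. Whether the numbers pair the libraries is not known here. Deviations of same-numbered libraries correlated at 0.12, -0.06 and 0.06 across genes, and not every library correlated best with its own number. Such correlations cannot show that pairing is absent. At 31119105 to 64431811 counts depth limits mainly Vldlr and Pars2, which had 2.52 to 5.98 CPM.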

Other observations

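Of 10 other tested genes of the ATF and C/EBP families 1 rose, 3 fell and 6 did not pass, or 40.0% called, near the 38.9% of all genes, with a median log2 fold change of -0.10. Nfil3, a repressor of the same bZIP class, rose from 72.9, 72.2 and 76.9 CPM in control medium to 124, 124 and 122 CPM with NETs (edgeR, log2 fold change 0.74 ± 0.049 SE, adjusted p = 2.61e-09). Cebpd, expressed at a low level, fell from 5.49 ± 0.198 to 3.83 ± 0.421 CPM (edgeR, log2 fold change -0.51 ± 0.13 SE, adjusted p = 0.00472), while its relative Cebpb rose. Atf1 fell by 0.21 on the log2 scale, and Atf3, a well-known ATF4 target, had 60.7, 49.2 and 58.8 CPM and 54.2, 51.3 and 52.8 CPM with overlapping groups (edgeR, log2 fold change -0.093 ± 0.070 SE, adjusted p = 0.323). Fgf21, a secreted hormone gene that ATF4 is known to induce, rose at a low level, from 2.48 ± 0.0389 to 4.44 ± 0.421 CPM (edgeR, log2 fold change 0.84 ± 0.14 SE, adjusted p = 0.000194), against the direction of most genes on its list.

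The table holds 2 rows with date-like names. The row mars-01, on chromosome 10 (127132090 to 127147655 as deposited), did not pass, as given beside Ddit3. The row mars-02, on chromosome 1 (55276336 to 55287629), had 14.6, 14.2 and 13.9 CPM in control medium and 11.6, 12.6 and 11.6 CPM with NETs (edgeR, log2 fold change -0.26 ± 0.083 SE, adjusted p = 0.0204). The table does not say which genes these rows stand for.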
